A study of Mus musculus with 12 samples.

Results

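The folding and translocation machinery of the endoplasmic reticulum (ER) was examined gene by gene in mouse B16 melanoma cells in which Elp3 was knocked down. The 37 genes are all rows of the count table, out of 24421 gene rows, whose symbol is on a list drawn up from known function: 4 stress sensors and their transcription factors, 8 HSP70 and HSP90 chaperones with their cofactors, 2 lectin chaperones, 7 disulfide isomerases and related proteins, 9 genes of ER-associated degradation, 3 subunits of the SEC61 channel and 4 subunits of the translocon-associated protein (TRAP) complex. Of these, 36 passed the filter on low counts. Derl3, a derlin of the degradation channel, did not: it had 0 to 3 counts in each total RNA library and 0 in all footprint libraries.

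All cells were B16, an established melanoma line, and all had been transduced with a lentivirus carrying an shRNA. Control cells received a non-relevant shRNA (shCTL, also labelled shControl), and knockdown cells 1 Elp3-directed hairpin (sh309, also labelled shELP3 and here called shElp3). Elp3 encodes the catalytic subunit of Elongator, a complex that modifies the wobble uridine of some tRNAs. The labels mark replicates A, B and C within each shRNA, with 2 libraries for each, taken here as from the same culture (6 cultures). These are ribosome-protected fragments (RPF, or footprints), which count ribosomes on an mRNA, and total RNA after removal of ribosomal RNA. This makes 4 groups of 3 libraries.

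The ER takes in secreted and membrane proteins through the SEC61 channel, with the TRAP complex beside it, and folds them with HSP70- and HSP90-type chaperones, lectins that bind glycans, and disulfide isomerases. Proteins that fail to fold are returned to the cytosol for degradation. When unfolded protein builds up, the sensors IRE1 (encoded by Ern1), ATF6 and PERK start the unfolded protein response, in which XBP1 and the released part of ATF6 switch on many of the chaperone and degradation genes together. Pigment cells load the ER with melanosomal glycoproteins such as tyrosinase, whose maturation uses the lectin chaperones.

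Total counts ran from 7619269 to 16527864 per library. The letter A libraries stood apart, except shElp3 A in footprints. The Spearman correlation over genes of control A with control B and C was 0.899 and 0.891 in total RNA, against 0.993 between B and C, and in footprints 0.942 and 0.948, against 0.992. For shElp3 A with shElp3 B and C it was 0.94 and 0.946 in total RNA, against 0.987. In footprints it was 0.991 and 0.981, against 0.987. Control A footprints also had 12997 genes with a count, against 14109 to 15578 in the other 5 footprint libraries. Elp3 itself was at 70 to 93.9 CPM (the count scaled to the size of the library) in control RNA and 35.3 to 41.3 in shElp3 RNA, and at 96.1 to 118 CPM in control footprints and 48.8 to 60.5 in shElp3 footprints, with no overlap. All 9 melanocyte markers (Pmel, Tyr, Tyrp1, Dct, Mlana, Mitf, Sox10, Gpr143 and Slc45a2) passed the filter, and none of 6 epithelial markers did. Of the other lists, 3 of 7 fibroblast markers (Col1a1, Pdgfra and Pdgfrb), 2 of 10 macrophage and leukocyte markers and 1 of 5 plasma cell markers (Sdc1) passed. Whole-culture RNA cannot tell fewer cells of a type from less RNA per cell. Nothing in the labels says how separate the cultures were, so a p-value here reflects how these cultures varied and nothing wider.

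Several of the ER genes carry, just upstream of the start site, the element through which the stress response is known to act. Promoter sequences from RefSeq (GRCm38.p6, from 250 bases before to 50 after the annotated start) were found for 31 of the 37 genes. They were searched on both strands for the ER stress element (ERSE, CCAAT, 9 bases, CCACG), for ERSE-II (ATTGG, 1 base, CCACG) and for the core of the unfolded protein response element (TGACG with TGG directly after it). No promoter of an ER gene held more than 1 kind of these motifs. ERSE was in 9 of the 31 promoters (29.0%), against 37 of all 27025 genes with a RefSeq promoter, these 9 included (0.137%). ERSE-II was in 2 (6.5%, against 0.0444%) and the response element core in 1, Txndc5 (3.2%, against 0.714%). The stretches below show the matched element with its flanks; the bases of the motif itself were fixed by the search. Each is written 5′ to 3′ on the strand of its gene, with the matched bases in capitals. In Calr and Creld2 the element lies on the other strand, so it reads CGTGG first, and Hsp90b1 has 1 copy in each direction.
Hspa5 (chr2:34772017-34772051, + strand): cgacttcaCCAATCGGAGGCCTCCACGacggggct
Hsp90b1 (chr10:86705525-86705664, - strand): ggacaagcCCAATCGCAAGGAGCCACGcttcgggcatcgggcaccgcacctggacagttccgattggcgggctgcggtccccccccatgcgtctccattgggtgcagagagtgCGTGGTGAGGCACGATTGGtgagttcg
Dnajc3 (chr14:118937819-118937853, + strand): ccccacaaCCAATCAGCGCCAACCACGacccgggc
Canx (chr11:50325792-50325826, - strand): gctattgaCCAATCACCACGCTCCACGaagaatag
Calr (chr8:84847067-84847101, - strand): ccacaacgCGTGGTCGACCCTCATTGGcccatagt
Pdia6 (chr12:17266483-17266517, + strand): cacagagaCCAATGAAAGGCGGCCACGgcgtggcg
Creld2 (chr15:88819512-88819546, + strand): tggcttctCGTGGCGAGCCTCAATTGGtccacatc
Syvn1 (chr19:6046524-6046558, + strand): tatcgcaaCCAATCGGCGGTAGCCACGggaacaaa
Herpud1 (ERSE-II, chr8:94386369-94386395, + strand): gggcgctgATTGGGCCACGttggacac

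The ninth ERSE promoter is that of Derl3, the gene that had next to no counts in these cells, and the second ERSE-II match is in Dnajb11, after the start site. A match describes letters in this window and is not evidence of binding, and its absence says only that these letters are not there.

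Knockdown of Elp3 did not separate the ER genes from their controls by the test over all 3 letters. In total RNA 0 of 36 genes were called (edgeR, adjusted p below 0.05), while 1.14% of all 12274 genes were, and in footprints 0 of 36, while 4.83% of all 11343 genes were. At an unadjusted p below 0.05 there was 1 gene in RNA (Dnajc3, against 12.4% of all genes) and 7 in footprints (Dnajc3, P4hb, Txndc5, Creld2, Edem2, Sec61b and Ssr1, against 23.1% of all genes), each below control. DESeq2 called 0 in RNA, against 5.31% of all genes, and 4 in footprints (Dnajc3, P4hb, Sec61b and Ssr1, all lower), against 11.5% of all genes in footprints. With the letter as a block, 1 ER gene was called in RNA (Sec61b, lower), against 6.75% of all genes lower. The median log2 difference of the 36 genes, shElp3 over control, was -0.20 in RNA (27 below 0) and -0.23 in footprints (31 below 0), beside medians of -0.02 and -0.01 over all genes tested, of which 51.9% and 50.9% were below 0.

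The shift of the median of the 36 genes below 0 was seen in letter A and not in the others, although some genes given below were lower in each letter. Ratios within a letter match libraries by their labels, and the footprint libraries were not taken as paired. Within letter A the median log2 ratio of shElp3 over control was -0.46 in RNA and -0.69 in footprints, with 31 and 35 of 36 genes below 0. Within letter B the medians were -0.01 and 0.01, and within letter C 0.03 and 0.04, with 17 to 19 genes on each side of 0 in both fractions. Without control A the medians over the remaining libraries were 0.07 in RNA and -0.02 in footprints.

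**Figure D1:**
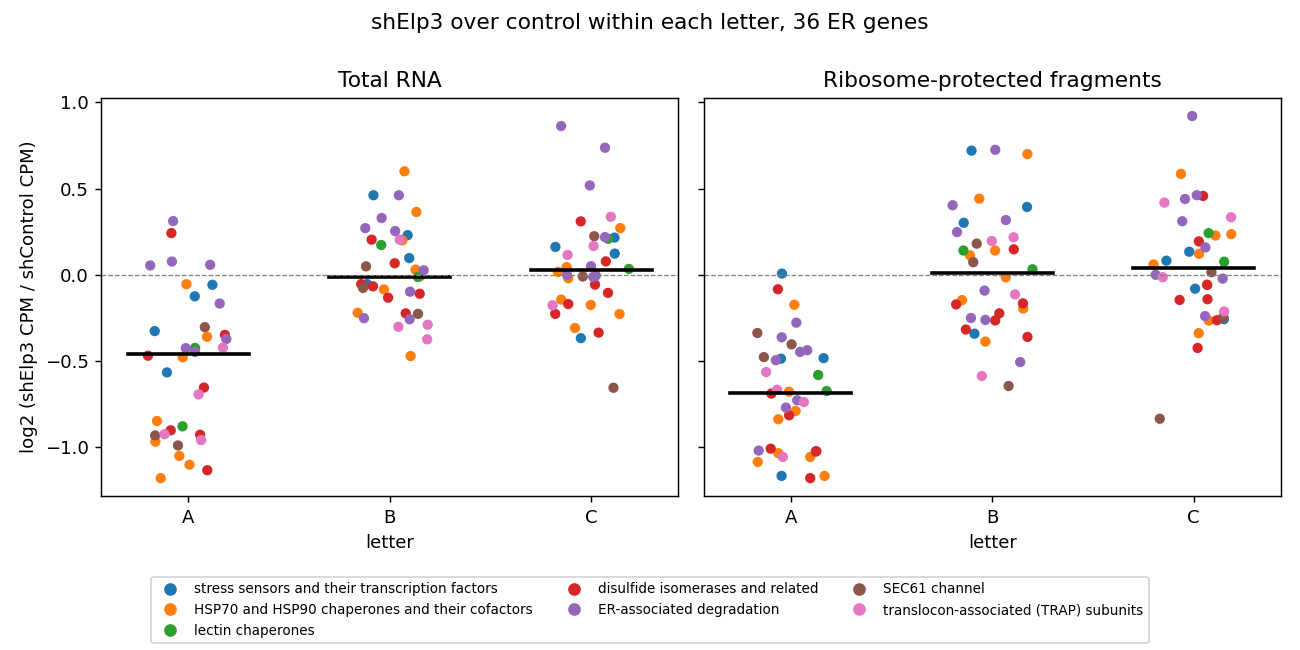
Log2 ratio of shElp3 CPM over control CPM within each letter (x axis) for the 36 genes that passed the filter, in total RNA (left) and footprints (right); each point is 1 gene, coloured by role, and the black bars are medians. Points sit below 0 in letter A (medians -0.46 and -0.69) and on both sides of 0 in letters B and C.

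The library that stood out was control A. Its level was the highest of the 6 footprint libraries for 32 of 36 ER genes (88.9%, against 28.6% of all genes) and the highest of the 6 RNA libraries for 25 (69.4%, against 30.6%). The ER genes together took 4.37% of all counts in control A footprints, against 2.65% and 2.78% in control B and C and 2.74% to 3.02% in the shElp3 libraries. In RNA they took 2.09% in control A, against 1.42% and 1.48% in control B and C and 1.54% to 1.66% in shElp3. Control A footprints lay above the mean of B and C for 35 genes, with a median log2 ratio of 0.61, whereas shElp3 A footprints lay above theirs for 8, with a median of -0.15. In RNA control A lay above for 30 genes, with a median of 0.74, and shElp3 A for 22, with a median of 0.22.

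**Figure D2:**
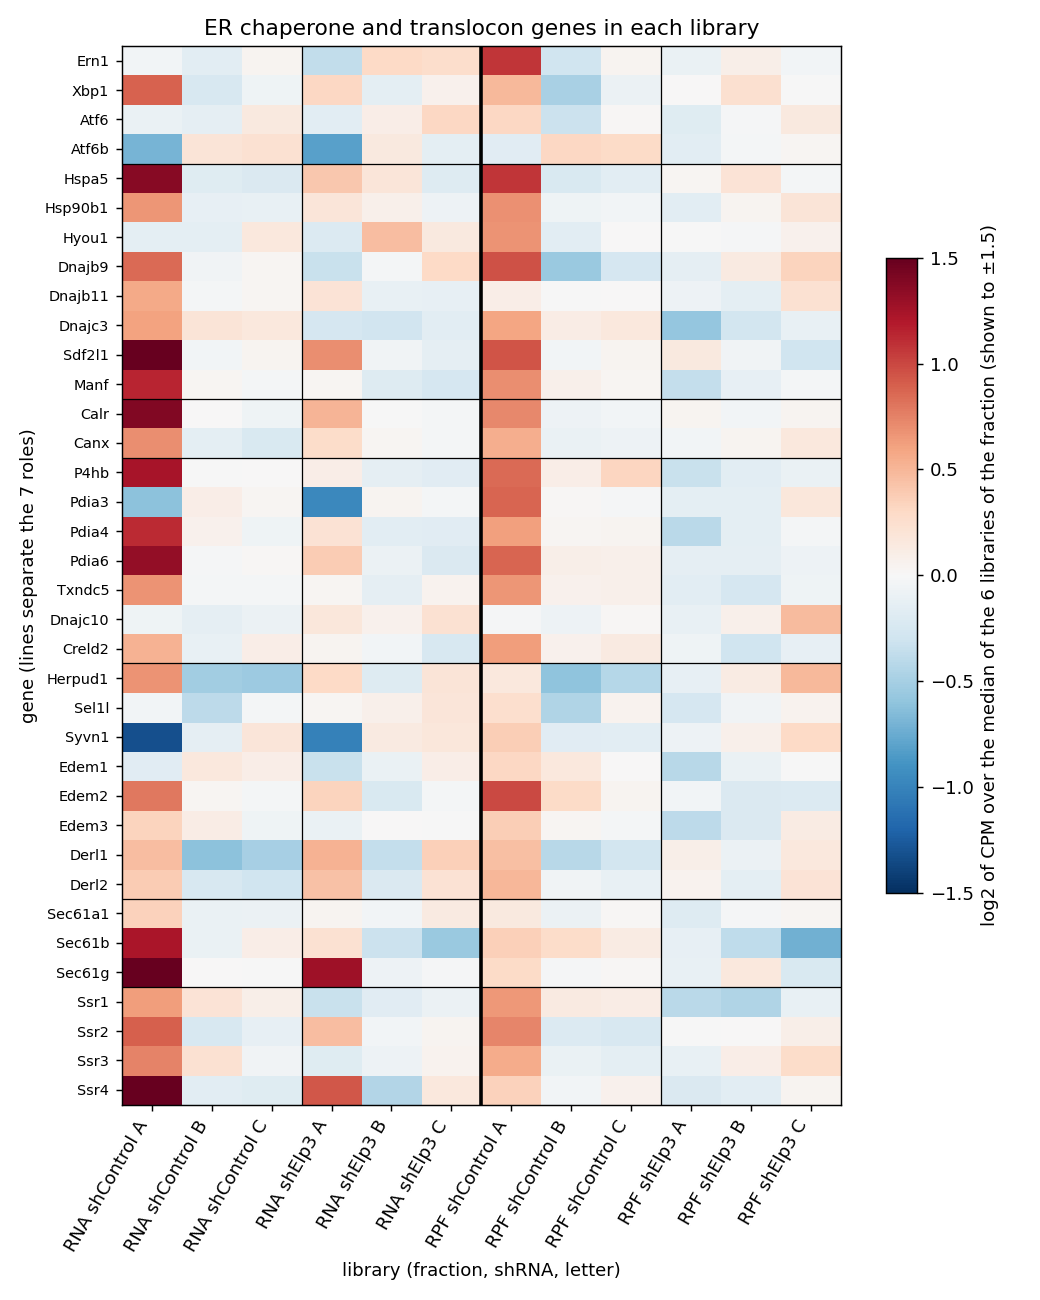
Log2 of CPM over the median of the 6 libraries of the same fraction, for 36 ER genes (rows, grouped by role) in the 12 libraries (columns). The control A columns are the reddest in both fractions, and the footprint libraries of letters B and C and of shElp3 A stay nearer 0.

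Whether the shElp3 effect differed between letter A and letters B and C was tested in each fraction. In footprints 12 of 36 ER genes had a lower effect in letter A and 0 a higher one, against 2.42% of all genes lower and 4.66% higher. In RNA 4 were lower (Hspa5, Dnajb9, Sdf2l1 and P4hb) and 0 higher, against 0.855% and 2.4% of all genes. The estimate was below 0 for 34 of 36 genes in each fraction, against 52.3% of all genes in RNA and 48.9% in footprints. Letter A has 1 library for each shRNA, so the test takes the spread from letters B and C alone. In footprints control A and shElp3 A were matched by label alone. A high control A library by itself would give a lower effect in letter A. The test cannot tell that from a knockdown that acted differently there. Leaving out single B or C libraries gave 0 to 15 genes in RNA, all lower. They were 0 of 36 without control B, 1 without control C, 15 without shElp3 B and 14 without shElp3 C, while the share of all genes called in either direction was 2.54%, 2.04%, 8.02% and 16%. In footprints the genes called were also all lower: 10 without control B, 17 without control C, 22 without shElp3 B and 20 without shElp3 C, against 7.98%, 10.1%, 12% and 16.1% of all genes. The TMM factor of control A in RNA was 0.813, against 1.0094 to 1.0645 in the other 5 RNA libraries. The 9 melanocyte markers summed to 14850 CPM in control A footprints, below control B and C (34640 and 28550) and within the range of shElp3 (11660 to 20610). In RNA they summed to 9037 CPM in control A, below control B and C (12140 and 10870) but above shElp3 (6080 to 7651). The single markers were mixed. In RNA control A was above all shElp3 libraries for Pmel, Tyr, Dct and Mitf and below all for Tyrp1 and Gpr143. It was within their range for Mlana, Sox10 and Slc45a2. In footprints it was above all for Pmel, Dct and Sox10, below all for Tyrp1, Mlana and Gpr143, and within for the rest. Of 10 macrophage and leukocyte markers, Cd68 and Lyz2 passed the filter and the list summed to 78.0 CPM in control A footprints, against 15.7 to 33.8 in the other footprint libraries, with 4 or 5 of the 10 at 0. Cd68 alone made up 75.6 CPM of that sum, against 9.55 to 30.5 in the others, whereas Lyz2 was lowest in control A footprints (1.40 CPM, against 2.01 to 3.97). The plasma cell marker Sdc1 was highest in control A in both fractions, at 242 CPM in RNA (152 to 194 in the others) and 227 in footprints (167 to 199). The fibroblast markers summed lowest in control A in both fractions. The sums were 24.2 CPM in RNA (46.4 to 94.7 in the others) and 64.7 in footprints (74.7 to 110.6). In footprints Pdgfrb was lowest there, but Col1a1 and Pdgfra were not. The part of these differences in the result was not tested.

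**Figure D3:**
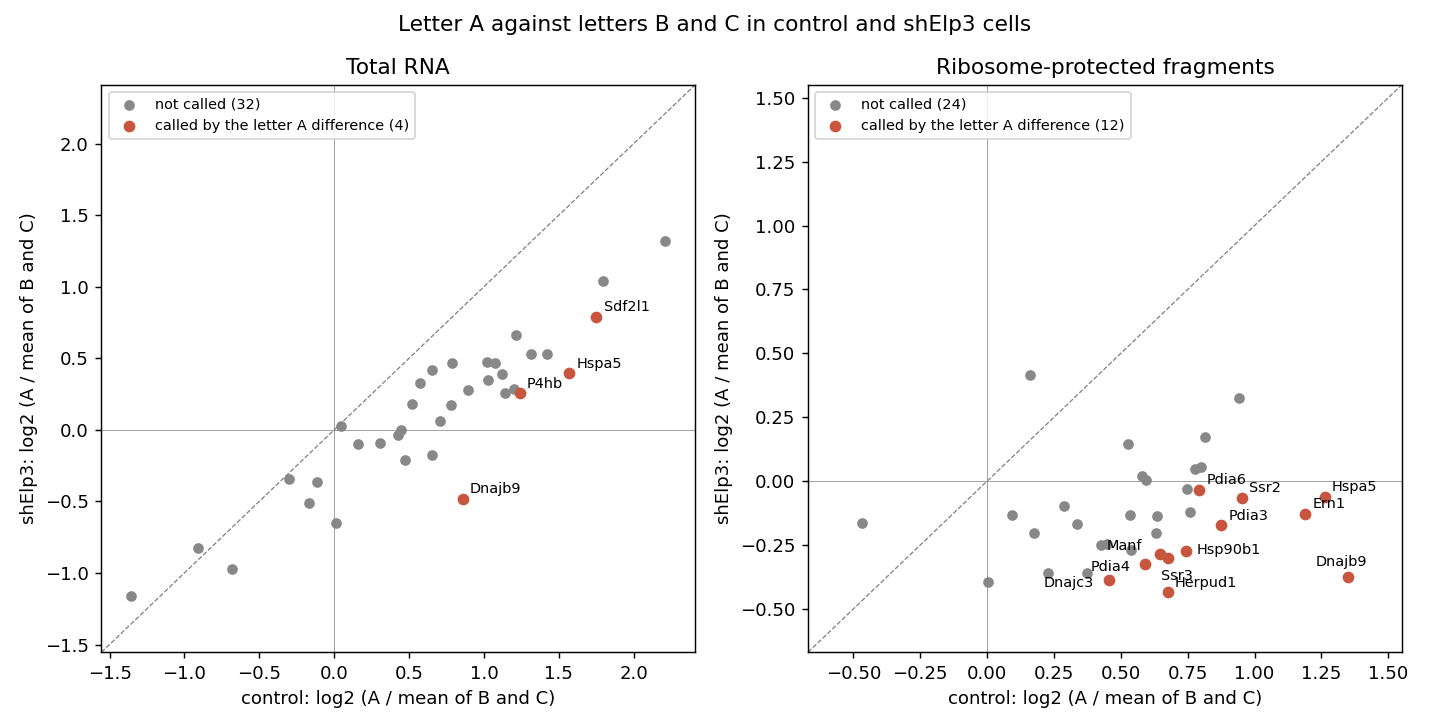
Log2 ratio of letter A over the mean of letters B and C in control cells (x axis) and shElp3 cells (y axis) for 36 ER genes, in total RNA (left) and footprints (right); the dashed line marks equal ratios, and red points are the genes called by the test of the letter A difference. Most points lie right of and below the line, 34 of 36 in each fraction by the fitted difference.

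The stress sensors and their factors were not called in RNA or footprints, and 1 of the 4 was called for the letter A difference. Values are given in the order A, B, C, as CPM scaled by TMM within each fraction, and differences are log2, shElp3 over control, from edgeR. Ern1 (chr11:106397620-106487796) encodes IRE1, the sensor that splices Xbp1 mRNA. Its footprints were at 189.9, 73.5 and 93.1 CPM in control cells and 84.5, 96.5 and 88.0 CPM in shElp3 cells. Control A was high, 2.28-fold over the mean of control B and C, and the other 5 libraries lay between 73.5 and 96.5 CPM. Ern1 RNA was at 95.9, 88.5 and 102 CPM in control cells and 76.4, 122 and 118 CPM in shElp3 cells, so the footprint excess of control A had no counterpart in RNA. The footprint difference was -0.40 (SE 0.33, adjusted p = 0.498) over all letters, 0.14 (SE 0.15, adjusted p = 0.514) in letters B and C alone, and the effect in letter A minus that in the others was -1.31 (SE 0.25, adjusted p = 0.0156).

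Xbp1 (chr11:5520641-5525993) encodes the main transcription factor downstream of IRE1. Its RNA was at 146, 67.2 and 76.1 CPM in control cells and 98.5, 71.8 and 82.8 CPM in shElp3 cells, and its footprints at 112, 57.3 and 75.5 CPM in control cells and 80.2, 94.5 and 79.9 CPM in shElp3 cells. Control A was again the highest library in both fractions, and the groups overlapped. The footprint difference was 0.06 (SE 0.24, adjusted p = 0.913) over all letters and 0.39 (SE 0.16, adjusted p = 0.103) in B and C alone. Gene counts do not tell the spliced from the unspliced Xbp1 mRNA. Atf6 (chr1:170704457-170868585), whose product is cut in the Golgi to release a transcription factor, had footprints at 289, 188 and 237 CPM in control cells and 207, 231 and 259.6 CPM in shElp3 cells and RNA at 221, 216 and 262 CPM in control cells and 212, 254 and 292 CPM in shElp3 cells. The groups overlapped in both, with differences of -0.03 (SE 0.18, adjusted p = 0.933) in footprints and 0.12 (SE 0.23, adjusted p = 0.912) in RNA. Its paralog Atf6b was the 1 ER gene whose control A footprints were below the mean of B and C (0.722-fold).

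Among the HSP70 and HSP90 chaperones and their cofactors, 0 of 8 were called over all letters, 5 of 8 had a lower shElp3 effect in letter A in footprints and 3 of 8 in RNA. Hspa5 (chr2:34772090-34776529) encodes BiP, the ER HSP70 that also holds the stress sensors inactive. Its RNA was at 4282, 1460 and 1427 CPM in control cells and 2186, 1879 and 1443 CPM in shElp3 cells. Footprints were at 9336, 3783 and 4002 CPM in control cells and 4551, 5137 and 4351 CPM in shElp3 cells. Control A exceeded the mean of control B and C 2.97-fold in RNA and 2.4-fold in footprints, whereas shElp3 A exceeded its own 1.32-fold in RNA and was 0.959-fold in footprints. Between letter A and the others the shElp3 effect differed by -1.17 (SE 0.29, adjusted p = 0.0339) in RNA and -1.32 (SE 0.25, adjusted p = 0.0161) in footprints. In letters B and C alone the shElp3 difference was 0.20 (SE 0.16, adjusted p = 0.423) in RNA and 0.28 (SE 0.14, adjusted p = 0.176) in footprints.

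Hsp90b1 (chr10:86690841-86705444) encodes GRP94, the ER HSP90. Footprints were at 9522, 5641 and 5738 CPM in control cells and 5320, 6098 and 6751 CPM in shElp3 cells, and RNA at 2737, 1587 and 1602 CPM in control cells and 1963, 1822 and 1652 CPM in shElp3 cells. The groups overlapped, with control A alone at the top. The shElp3 effect in letter A minus that in B and C was -1.01 (SE 0.25, adjusted p = 0.0349) in footprints and -0.60 (SE 0.27, adjusted p = 0.212) in RNA. Over all letters the footprint difference was -0.20 (SE 0.23, adjusted p = 0.648), and in B and C alone 0.17 (SE 0.14, adjusted p = 0.402).

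Dnajb9 (chr12:44205897-44210068) encodes ERdj4, a BiP cochaperone and a known target of XBP1. Among the ER genes it had the largest estimate of the letter A difference in both fractions. Footprints were at 104, 36.5 and 45.2 CPM in control cells and 49.0, 59.2 and 67.8 CPM in shElp3 cells. In RNA it was at 30.5, 16.3 and 17.3 CPM in control cells and 13.4, 16.6 and 20.9 CPM in shElp3 cells. Control A was the highest and control B and C the lowest footprint libraries, with the 3 shElp3 libraries between them. The footprint difference was -0.07 (SE 0.37, adjusted p = 0.927) over all letters. In letters B and C alone it was 0.64 (SE 0.15, adjusted p = 0.0103), and without control A 0.51 (SE 0.16, adjusted p = 0.0438), so the direction turned with that 1 library. The effect in letter A minus that in B and C was -1.72 (SE 0.27, adjusted p = 0.00698) in footprints and -1.35 (SE 0.32, adjusted p = 0.0264) in RNA.

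Dnajc3 (chr14:118937932-118981702) encodes p58IPK, a cochaperone that also restrains PERK. Its RNA was at 364, 274 and 268 CPM in control cells and 202, 198 and 216 CPM in shElp3 cells, and its footprints at 339, 244 and 251 CPM in control cells and 151, 186 and 208 CPM in shElp3 cells. In both fractions every shElp3 library lay below every control library, in letters B and C as well as A. The difference over all letters missed the threshold, at -0.56 (SE 0.23, adjusted p = 0.365) in RNA and -0.61 (SE 0.18, adjusted p = 0.101) in footprints. Without control A the footprint difference was -0.46 (SE 0.14, adjusted p = 0.0352), in B and C alone -0.33 (SE 0.12, adjusted p = 0.0698), and by DESeq2 over all letters -0.61 (SE 0.22, adjusted p = 0.042).

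Sdf2l1 (chr16:17130138-17132383), part of a BiP complex, had RNA at 312, 90.2 and 95.3 CPM in control cells and 150.5, 89.6 and 84.4 CPM in shElp3 cells and footprints at 152, 77.3 and 81.2 CPM in control cells and 88.0, 76.4 and 64.2 CPM in shElp3 cells. Letter A was the highest of its shRNA in both fractions and both shRNAs, more so in control cells. In RNA the letter A difference was -0.96 (SE 0.25, adjusted p = 0.0435), and in footprints it was -0.62 (SE 0.23, adjusted p = 0.124). Manf (chr9:106888753-106891938), a secreted protein retained with BiP, had footprints at 383, 248 and 241 CPM in control cells and 184, 216 and 231 CPM in shElp3 cells. Its RNA was at 309.8, 143 and 138 CPM in control cells and 144, 123 and 118 CPM in shElp3 cells. Footprints did not overlap between the shRNAs, with shElp3 below control throughout, and the difference over all letters was -0.46 (SE 0.20, adjusted p = 0.223). In footprints its letter A difference was -0.93 (SE 0.20, adjusted p = 0.0206). The other members of this role were Hyou1, a nucleotide exchange factor for BiP, and Dnajb11 (ERdj3), and their footprint differences over all letters were -0.21 and -0.02.

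**Figure D4:**
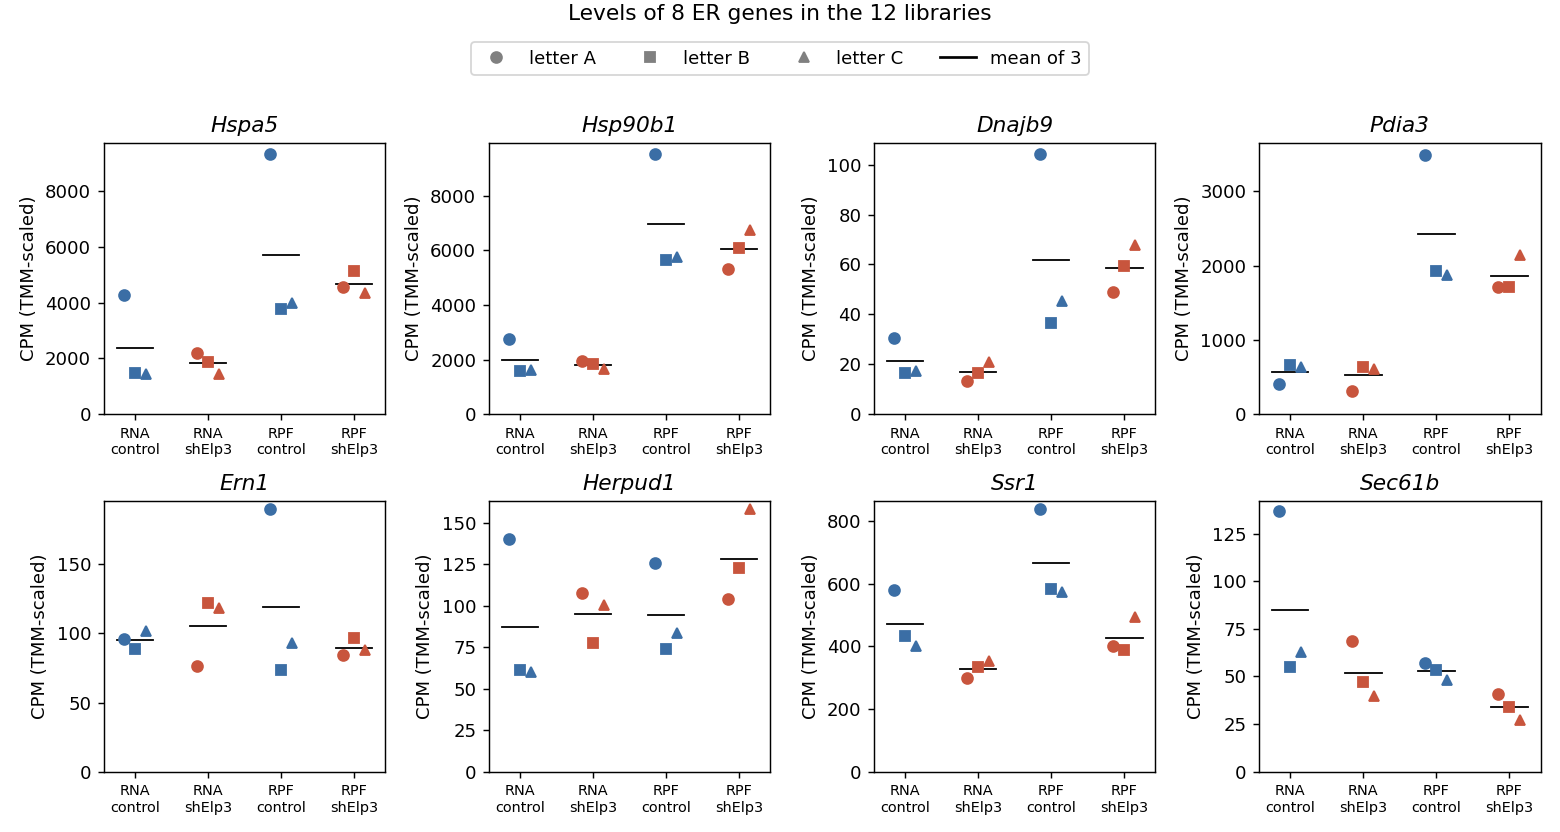
CPM (TMM-scaled within each fraction, y axis from 0) of 8 ER genes in each of the 12 libraries, control in blue and shElp3 in red, with the symbol marking the letter and the bar the mean of 3. Control A footprints sit far above the other 5 for Hspa5, Hsp90b1, Dnajb9, Pdia3 and Ern1, while the Ssr1 and Sec61b footprints of the shRNAs do not overlap.

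The lectin chaperones calreticulin and calnexin, which hold newly made glycoproteins, were not called by edgeR over all letters or in letters B and C alone. Nor were they called for the letter A difference with all libraries in the fit. In footprints that difference was called for both by DESeq2 (-0.75 for Calr and -0.79 for Canx) and by edgeR without shElp3 B or without shElp3 C. The same fits called Calr, but not Canx, in RNA. Calr (chr8:84842088-84846931) RNA was at 1665, 638 and 608 CPM in control cells and 904, 631 and 622 CPM in shElp3 cells, and its footprints at 3606, 2080 and 2132 CPM in control cells and 2256, 2124 and 2245 CPM in shElp3 cells. Control A was far above the other footprint libraries, 1.71-fold over the mean of control B and C. Canx (chr11:50293957-50325673) footprints were at 4757, 3031 and 3086 CPM in control cells and 3175, 3339 and 3647 CPM in shElp3 cells and its RNA at 3177, 1764 and 1664 CPM in control cells and 2366, 1988 and 1921 CPM in shElp3 cells. The letter A differences in footprints, -0.73 (SE 0.22, adjusted p = 0.0706) for Calr and -0.78 (SE 0.23, adjusted p = 0.0679) for Canx, were like those of the genes called but missed the threshold. In letters B and C alone the footprint differences were 0.05 (SE 0.12, adjusted p = 0.797) for Calr and 0.19 (SE 0.13, adjusted p = 0.326) for Canx.

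The disulfide isomerases and related proteins, which form and rearrange disulfide bonds, had 0 of 7 called over all letters. Their footprints lay lower in every shElp3 library than in every control library for 5 of 7 (P4hb, Pdia4, Pdia6, Txndc5 and Creld2), and for 11 of all 36 ER genes (30.6%, against 15.3% of all genes). The other 6 were Dnajc3, Manf, Edem1, Edem2, Sec61b and Ssr1. In no ER gene did the footprint groups separate in the other direction, against 15.4% of all genes. In RNA 2 genes lay lower without overlap, Dnajc3 and Ssr1, and 2 higher, Dnajc10 and Sel1l (5.56% each, against 9.56% and 10.2% of all genes).

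P4hb (chr11:120560298-120573253), the founding protein disulfide isomerase, had footprints at 2927, 1747 and 2033 CPM in control cells and 1290, 1453 and 1513 CPM in shElp3 cells. RNA was at 2447, 1034 and 1038 CPM in control cells and 1114, 942 and 922 CPM in shElp3 cells. The footprint groups did not overlap, and the RNA groups did. Its footprint difference was -0.66 (SE 0.20, adjusted p = 0.109) over all letters by edgeR and -0.66 (SE 0.23, adjusted p = 0.0396) by DESeq2, and it was -0.35 (SE 0.13, adjusted p = 0.0752) in B and C alone. In RNA its letter A difference was -0.98 (SE 0.26, adjusted p = 0.0451).

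Pdia3 (chr2:121413902-121438687), or ERp57, works on glycoproteins with the lectin chaperones. Its footprints were at 3491, 1930 and 1876 CPM in control cells and 1714, 1718 and 2145 CPM in shElp3 cells, with control A at the top. Its RNA was at 405, 665 and 633 CPM in control cells and 318, 640 and 608 CPM in shElp3 cells, so letter A had the lowest RNA of both shRNAs. Control A was thus the highest footprint library and the next to lowest RNA library for this gene, and the log2 ratio of footprints to RNA there was 3.11, against 1.54 and 1.57 in control B and C. In shElp3 cells the ratio was 2.43 in letter A, against 1.43 and 1.82. In footprints the letter A difference was -1.05 (SE 0.25, adjusted p = 0.0326).

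Pdia4 (chr6:47796141-47813512) and Pdia6 (chr12:17266589-17284785) are further isomerases found with BiP. Pdia4 footprints were at 1994, 1320 and 1331 CPM in control cells and 979.5, 1172 and 1277 CPM in shElp3 cells, and its RNA at 1149, 551 and 504 CPM in control cells and 614, 471 and 468 CPM in shElp3 cells. Pdia6 footprints were at 1931, 1122 and 1108 CPM in control cells and 958, 959.6 and 1000 CPM in shElp3 cells, and its RNA at 1504, 598 and 612 CPM in control cells and 789, 570.3 and 522 CPM in shElp3 cells. In both genes the shElp3 footprints lay below control in every letter, by little in letter C: the within-letter ratios A, B and C were -1.03, -0.17 and -0.06 for Pdia4. For Pdia6 they were -1.01, -0.23 and -0.15. For the letter A difference in footprints the estimate was -0.91 (SE 0.21, adjusted p = 0.0318) for Pdia4 and -0.82 (SE 0.21, adjusted p = 0.0388) for Pdia6. Dnajc10 (ERdj5), a reductase that serves degradation, did not share the pattern: its control A footprints were level with the mean of control B and C (1-fold), and its difference over all letters was 0.19.

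In ER-associated degradation 0 of 8 tested genes were called over all letters, and the RNA median was 0.14, the highest of the 7 roles. Herpud1 (chr8:94386429-94395371), a membrane scaffold of the degradation complex, had footprints at 126, 74.0 and 83.5 CPM in control cells and 104, 122 and 158 CPM in shElp3 cells. Its RNA was at 139.9, 61.5 and 60.2 CPM in control cells and 108, 77.2 and 100.3 CPM in shElp3 cells. In letters B and C both shElp3 libraries lay above both control libraries in each fraction, whereas control A was above shElp3 A. In letters B and C alone Herpud1 rose, with a difference of 0.83 (SE 0.15, adjusted p = 0.00266) in footprints and 0.55 (SE 0.16, adjusted p = 0.0253) in RNA. Over all letters it was 0.44 (SE 0.24, adjusted p = 0.315) in footprints, and without control A 0.69 (SE 0.17, adjusted p = 0.0163). Its letter A difference in footprints was -1.11 (SE 0.26, adjusted p = 0.0302).

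Derl1 (chr15:57869502-57892418), a derlin of the channel that returns proteins to the cytosol, had RNA at 632, 299.8 and 323 CPM in control cells and 658, 357 and 588 CPM in shElp3 cells and footprints at 475, 260.3 and 285 CPM in control cells and 369, 324 and 386 CPM in shElp3 cells. In B and C alone its RNA rose by 0.60 (SE 0.19, adjusted p = 0.0321), most of it in letter C, where the ratio was 0.86 against 0.25 in letter B. Sel1l (chr12:91806043-91849157), the adaptor of the ubiquitin ligase SYVN1, had RNA at 381, 300.3 and 384 CPM in control cells and 402, 413 and 447 CPM in shElp3 cells. Its RNA groups did not overlap, and the difference was 0.24 (SE 0.22, adjusted p = 0.763). Sel1l footprints were at 596, 366 and 522 CPM in control cells and 423, 484 and 521 CPM in shElp3 cells and overlapped. Syvn1 was picked out after its values were seen: its RNA was at 15.4, 35.1 and 43.8 CPM in control cells and 19.1, 42.3 and 43.4 CPM in shElp3 cells, low in letter A of both shRNAs, and its footprints at 122, 83.6 and 84.1 CPM in control cells and 89.2, 99.2 and 116 CPM in shElp3 cells, not low there. The mannosidase-like Edem1 and Edem2, which mark glycoproteins for degradation, had footprint differences of -0.33 (SE 0.16, adjusted p = 0.246) and -0.64 (SE 0.24, adjusted p = 0.164).

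In the SEC61 channel edgeR called 0 of 3 subunits over all letters or for the letter A difference with all libraries in the fit. Sec61a1 (chr6:88503607-88518800), the pore, stayed within a narrow range: footprints were at 964, 824 and 882 CPM in control cells and 762, 866 and 890.2 CPM in shElp3 cells and RNA at 867, 637 and 639 CPM in control cells and 702, 659 and 746 CPM in shElp3 cells. The footprint difference was -0.08 (SE 0.13, adjusted p = 0.739). Sec61g (chr11:16501638-16508484) RNA was at 300, 65.1 and 64.6 CPM in control cells and 157, 61.7 and 64.1 CPM in shElp3 cells, with letter A far above the others in both shRNAs, 4.63-fold in control and 2.5-fold in shElp3 over the mean of B and C. Its footprints were at 131, 106 and 109 CPM in control cells and 99.0, 120.2 and 91.6 CPM in shElp3 cells, with a range far narrower than in RNA. The letter A difference of Sec61g in RNA was -0.89 (SE 0.25, adjusted p = 0.0582), and it was called by DESeq2 (-0.90, adjusted p = 0.043), by edgeR without shElp3 B (adjusted p = 0.0143) and without shElp3 C (adjusted p = 0.00564).

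Sec61b (chr4:47474661-47483233), the other small subunit, was picked out after its values were seen, because it was the ER gene called lower in letters B and C alone. Its footprints were at 56.9, 53.6 and 48.3 CPM in control cells and 40.8, 34.2 and 27.0 CPM in shElp3 cells, and its RNA at 137, 55.0 and 62.7 CPM in control cells and 68.7, 46.9 and 39.8 CPM in shElp3 cells. The footprint groups did not overlap, and shElp3 was below control in each letter, with log2 ratios of -0.48, -0.65 and -0.84 in A, B and C. The footprint difference was -0.64 (SE 0.18, adjusted p = 0.086) over all letters, -0.73 (SE 0.15, adjusted p = 0.00657) in B and C alone and -0.64 (SE 0.21, adjusted p = 0.0264) by DESeq2. In RNA it was -0.71 (SE 0.40, adjusted p = 0.566), and with the letter as a block it was called, at -0.63 (SE 0.19, adjusted p = 0.0434).

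Of the 4 TRAP subunits, which sit beside the channel and help some proteins to enter, 2 had a lower shElp3 effect in letter A in footprints. Ssr1 (chr13:37971401-37994208), or TRAP alpha, had RNA at 579.9, 435 and 400.1 CPM in control cells and 298, 335 and 354 CPM in shElp3 cells and footprints at 838, 584 and 573 CPM in control cells and 402, 388 and 494 CPM in shElp3 cells. Every shElp3 library lay below every control library in both fractions. The difference was -0.64 (SE 0.19, adjusted p = 0.0973) in footprints and -0.52 (SE 0.24, adjusted p = 0.455) in RNA over all letters, and by DESeq2 -0.64 (SE 0.22, adjusted p = 0.0347) in footprints. Without control A it was -0.45 (SE 0.12, adjusted p = 0.0262), and in B and C alone -0.39 (SE 0.13, adjusted p = 0.0581).

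Ssr2 (chr3:88579608-88588420) footprints were at 420.2, 219.9 and 215 CPM in control cells and 252, 256 and 270.3 CPM in shElp3 cells, and its RNA at 208, 94.5 and 103 CPM in control cells and 155, 109 and 115 CPM in shElp3 cells. Ssr3 (chr3:65379657-65392553) footprints were at 939, 597 and 577 CPM in control cells and 591, 683 and 772 CPM in shElp3 cells, and its RNA at 807, 564 and 463 CPM in control cells and 424, 457 and 501 CPM in shElp3 cells. In both genes control A was the top footprint library and control B and C were below all shElp3 B and C libraries. The letter A difference was -1.02 (SE 0.19, adjusted p = 0.0158) for Ssr2 and -0.98 (SE 0.21, adjusted p = 0.0225) for Ssr3. So the subunits of 1 complex did not share a direction outside letter A: in B and C alone the footprint differences were -0.39 for Ssr1, 0.28 for Ssr2, 0.31 for Ssr3 and -0.06 for Ssr4, and none of the 4 was called.

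In letters B and C alone, 3 of 36 ER genes were called in footprints (Herpud1 and Dnajb9 higher, Sec61b lower), against 21.7% of all genes (9.41% higher and 12.2% lower). In RNA 2 were called (Herpud1 and Derl1, higher), against 19.4% of all genes (8.88% higher). The count of ER genes called there was thus not above that of genes at large. Without control A, 7 were called in footprints, against 24.8% of all genes: Derl1, Dnajb9 and Herpud1 were higher, and Dnajc3, P4hb, Sec61b and Ssr1 lower.

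Translational efficiency, the ratio of footprints to RNA, was compared between shRNAs in 1 model over the 12 libraries, as a question of whether ribosomes on an mRNA changed beyond the mRNA itself. It called 0 of 36 ER genes and 0% of all 11238 genes by edgeR. At an unadjusted p below 0.05 there were 0 ER genes, and DESeq2 and limma voom also called 0. The median log2 change was -0.11 (23 of 36 below 0), beside -0.03 over all genes, and by letter the medians were -0.14 in A, -0.03 in B and 0.04 in C. The lowest estimate was that of Ern1, -0.61 (SE 0.45, adjusted p = 1), and the highest that of Sec61g, 0.40 (SE 0.75, adjusted p = 1). In letters B and C alone these were -0.21 (SE 0.19, adjusted p = 0.999) and 0.00 (SE 0.20, adjusted p = 0.999): letter A is where Ern1 had high control footprints and Sec61g high RNA.

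**Figure D5:**
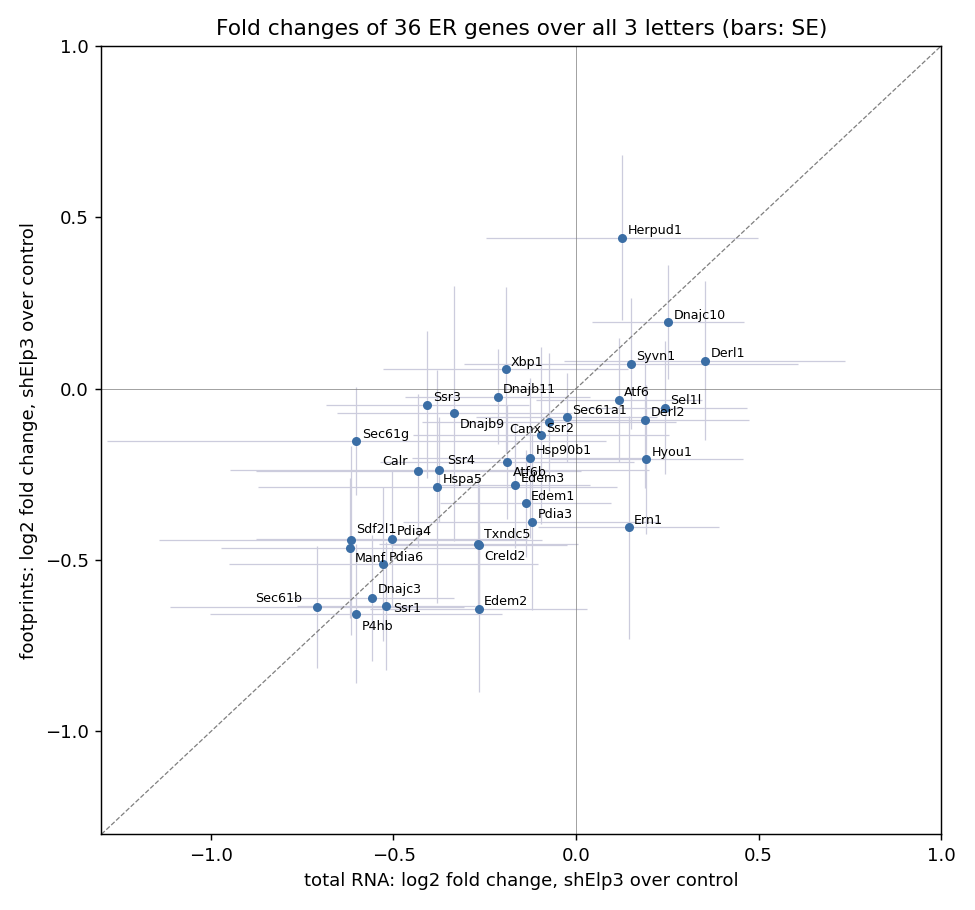
Log2 difference, shElp3 over control, of 36 ER genes in total RNA (x axis) and footprints (y axis) over all 3 letters, with bars of 1 SE; the dashed line marks equal differences. Most genes lie below 0 on both axes (27 of 36 in RNA, 31 in footprints) and 0 were called in either.

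ER genes with and without an ERSE match had overlapping values. For the 8 ER genes with an ERSE that passed the filter, the median log2 ratio of control A over control B and C in footprints was 0.69 (0.46 to 1.26), and for the 22 with a promoter and no ERSE 0.58 (-0.47 to 1.35). The median shElp3 differences in footprints were -0.26 and -0.26 over all letters, and 0.11 and -0.03 in letters B and C alone. These are descriptions with no test.

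Other genes of the same pathways were taken from a separate list of 96 in the table: stress regulators, the signal recognition particle, other translocation factors, signal peptidase, oligosaccharyltransferase, glycan trimming, other folding enzymes, other degradation factors and KDEL receptors. In RNA 0 of 93 tested were called by edgeR, against 1.14% of all genes, and in footprints 1 of 92, against 4.83%. With the letter as a block the RNA fit called 2 higher (Wfs1 and Faf2) and 4 lower (Srp19, Ubac2, Rnf5 and Kdelr2), against 5.46% and 6.75% of all genes. The 1 gene called in footprints without the block was Ubac2, a factor of degradation, which fell by 0.87 on the log2 scale (SE 0.18, adjusted p = 0.0398). Its footprints were at 80.4, 55.0 and 58.2 CPM in control cells and 32.8, 34.9 and 38.1 CPM in shElp3 cells. Among these genes the letter A difference was lower for 21 of 92 in footprints (against 2.42% of all genes) and 6 of 93 in RNA (against 0.855%), and higher for 0 in both, against 4.66% and 2.4%, so it was not limited to the 37 genes. It took in 5 of 12 oligosaccharyltransferase genes, 8 of 21 other folding enzymes and 2 of 3 KDEL receptors, which return escaped chaperones to the ER.

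Ero1l, the oxidase that recharges disulfide isomerases, had footprints at 1642, 949 and 1005 CPM in control cells and 741, 1123 and 1221 CPM in shElp3 cells, with a letter A difference of -1.41 (SE 0.21, adjusted p = 0.00618). P4ha1, a collagen prolyl hydroxylase subunit that pairs with P4hb, was at 3454, 1279 and 1056 CPM in control cells and 1101, 1166 and 1112 CPM in shElp3 cells, with -1.61 (SE 0.24, adjusted p = 0.00539). Ost4, a small oligosaccharyltransferase subunit, was at 459.7, 163 and 126 CPM in control cells and 121, 107 and 106 CPM in shElp3 cells, with -1.49 (SE 0.24, adjusted p = 0.00792). In each, control A was the highest of the 6 footprint libraries. Ddit3, which encodes the stress factor CHOP, had footprints at 566, 186 and 105 CPM in control cells and 251, 279 and 168 CPM in shElp3 cells and RNA at 966, 199 and 194 CPM in control cells and 643, 414 and 258 CPM in shElp3 cells, with letter A differences of -1.79 (SE 0.45, adjusted p = 0.0386) and -1.36 (SE 0.32, adjusted p = 0.0233). Control A was the highest Ddit3 library in both fractions, followed in RNA by shElp3 A. Kdelr3 had a letter A difference in footprints of -1.44 (SE 0.25, adjusted p = 0.012), Srpr, of the signal recognition particle receptor, -1.28 (SE 0.21, adjusted p = 0.00973), and Lman1, a cargo receptor for glycoproteins leaving the ER, -1.13 (SE 0.21, adjusted p = 0.0153). For Kdelr2, Sec62, Ostc, Fam8a1 and Vimp it was between -1.27 and -0.90.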

How the data were processed

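Ribosome-protected fragments and total RNA were measured in 12 libraries, prepared with the TruSeq Ribo Profile kit per the labels. The deposited table holds the authors' raw counts per gene. The submitters' processing notes name bcl2fastq, Bowtie, TopHat2 2.1.1, HTSeq and the mm10 build. The annotation and the strand setting of the counting were not given in the sources used here, so overlapping genes and near-identical copies may share reads. Counts of each fraction were scaled by TMM, filtered (filterByExpr, minimum count 10) and fitted over all genes with edgeR 4.0.16 quasi-likelihood in R 4.3.3, two-sided, with Benjamini-Hochberg adjustment at 0.05. Translational efficiency was the interaction of fraction and shRNA over 12 libraries, and the letter A difference that of shRNA with letter A.

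Alternatives were DESeq2 1.42.0, limma 3.58.1 voom, other scalings and filters, letters B and C alone, the letter or culture as a block, and leaving out each library. The fits were first tested on simulated data.

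The ER genes, lists, tests and alternatives were chosen with earlier results of these data known. Values in every library are given for ER genes called in RNA, footprints or efficiency or for the letter A difference, the 2 of each role with the highest mean count, and Xbp1 and Ern1. Of the other pathway genes up to 2 called per list with the lowest p were named, some with footprints or a letter A difference only. Positions and promoters are from RefSeq GRCm38.p6, and 24313 of 24421 symbols matched. Levels were not compared between genes, since exon lengths were not used here, and protein features were not analysed here. Same-letter libraries deviated together over genes in RNA (r = 0.819, 0.451 and 0.603 for A, B and C) and in the footprint to RNA ratio (0.789, 0.489 and 0.515). Control B with shElp3 C gave 0.709 in RNA and 0.549 in the ratio, and control C with shElp3 B 0.599 and 0.612. So in RNA and in the ratio the data set letter A apart in both shRNAs, but do not pair letter B with B or C with C. In footprints the same-letter r was 0.341, -0.109 and 0.221, and these libraries were not taken as paired. The footprint ratios within a letter thus match libraries by label alone.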

Additional observations from a re-analysis of the deposited data

Results flagged for a closer look

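For 16 results the effect of shElp3 in letter A differed, by the test of the difference itself, from that in letters B and C. All were negative, that is, shElp3 over control was lower in letter A, and each rests on 1 control and 1 shElp3 library in that letter. In footprints these libraries were matched by label alone, and a high control A by itself would give such a difference. The alternatives counted below all kept both libraries, so they do not test that dependence. In total RNA the log2 differences were -1.172 for Hspa5, -1.348 for Dnajb9, -0.96 for Sdf2l1 and -0.983 for P4hb. In footprints the chaperones and cofactors gave -1.322 for Hspa5, -1.015 for Hsp90b1, -1.724 for Dnajb9, -0.843 for Dnajc3 and -0.932 for Manf. The sensor Ern1 gave -1.315. The isomerases gave -1.048 for Pdia3, -0.911 for Pdia4 and -0.825 for Pdia6, and the remaining ones were -1.11 for Herpud1, -1.016 for Ssr2 and -0.978 for Ssr3. Hspa5 and Dnajb9 were called in both fractions. Of the 12 footprint results, 10 were called in all 7 alternatives run (other scaling, DESeq2, a higher count minimum, and leaving out each B or C library), Hsp90b1 in 6 and Pdia6 in 5. The 4 RNA results were each called in 5 of 7.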

How the results depend on the processing

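The count of ER genes called over all letters moved from 0 in RNA to 2 in letters B and C only and to 1 with the letter as replicate block (Sec61b, -0.632, adjusted p = 0.0434), and in footprints to 4 by DESeq2 and 3 in letters B and C only. Leaving out 1 library gave 0 in RNA, 0 to 7 in footprints (7 without control A) and 0 for translational efficiency. The medians then ran from -0.347 to 0.065 in RNA, -0.337 to -0.019 in footprints and -0.178 to 0.076 for translational efficiency, whose 0.076 came without shElp3 A. The Dnajb9 footprint difference, -0.072, turned to 0.635 in letters B and C only and ran from -0.344 to 0.511 when 1 library was left out (0.511 without control A).

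The letter A difference in RNA was called for 7 genes by DESeq2 and for 0 to 15 when 1 library was left out, and in footprints for 10 to 22 (14 with RLE scaling, 17 by DESeq2). It could not be computed without a letter A library. No other scaling or filter changed a count of calls over all letters. With the replicate block, pairing by letter, the footprint count stayed 0, and translational efficiency had 0 calls with the letter or the culture as block. The block raised the RNA calls over all genes from 140 to 1499. Upper quartile scaling moved the medians to -0.128 in RNA and -0.147 in footprints, with 25 and 26 genes below 0. With 3 libraries a group and control A apart from B and C, the standard errors over all letters were 0.21 to 0.68 in RNA and 0.13 to 0.37 in footprints, so an ER gene called by none of the fits is not shown to be unaffected.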
